A study of Oryctolagus cuniculus with 12 samples.

Results

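KCNIP1 and LRRC55, genes of auxiliary potassium channel subunits, are named in the authors' deposited comparison tables among those higher after lipopolysaccharide and lower when cyclosporine A was added. Chosen for that pattern, the 2 genes were read by identifier, ENSOCUG00000000540 for KCNIP1 and ENSOCUG00000000448 for LRRC55, out of 17301 genes with a value in each of 12 libraries. The rabbits were New Zealand White, and RNA of their uterine body was sequenced as 1 library per animal, with 3 animals per group. Each value is an FPKM, which scales fragments by transcript length and by the mapped fragments of the library. Animals of the LPS+CsA group received 4 mg/kg of lipopolysaccharide, a glycolipid of the envelope of Gram-negative bacteria, and 20 mg/kg of cyclosporine A, a calcineurin inhibitor that blocks T cell activation. The LPS group received the lipopolysaccharide with vehicle in place of cyclosporine A, the CsA group cyclosporine A with saline in place of lipopolysaccharide, and the Control group both vehicles. All animals, Control included, had been given eCG and hCG to synchronise oestrus and ovulation. They weighed 2.56 ± 0.13 kg (the labels do not define the error), and tissue was taken after 3 h of treatment. Ages are not given, and the labels disagree on whether the infusion was intrauterine or intravaginal, on the vehicle of cyclosporine A, and on when it was injected.

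Potassium channels carry outward current that repolarises excitable cells, and in the myometrium, the smooth muscle of the uterus, they damp contraction. Their pore-forming subunits are joined by auxiliary subunits that set gating and traffic. KCNIP1 encodes a Kv channel-interacting protein, a calcium-binding protein of the neuronal calcium sensor family, which binds the cytoplasmic part of Kv4 channels, raises their number at the cell surface and slows their inactivation. LRRC55 encodes a membrane protein with leucine-rich repeats that acts as a gamma subunit of the large-conductance calcium-activated (BK) potassium channel and lets it open at more negative voltages. These roles were worked out largely on human and rodent proteins.

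The deposited annotation of the identifiers was not uniform. The best named protein match of ENSOCUG00000000540 was Kv channel-interacting protein 1 in one database and its paralogue KCNIP4 in another. That of ENSOCUG00000000448 was LRRC55 itself in one and asporin, another leucine-rich repeat protein, in the other. The sources used here do not say how reads shared by paralogues were assigned, so both names carry that uncertainty. In the RefSeq annotation of the assembly mOryCun1.1, matched by symbol, 1 other protein-coding gene lies within the span of KCNIP1. That gene is KCNMB1, the beta subunit of the BK channel of smooth muscle. Whether the counting used strand is not given, so reads from KCNMB1 cannot be told apart from KCNIP1 wherever their exons overlap. LRRC55 overlapped no protein-coding gene there, and its nearest such neighbour on one side was APLNR, the apelin receptor.

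KCNIP1 stood higher in the 3 LPS animals than in the 3 Control animals, by a narrow margin at its edge and a wide one at its top. Its level was 28.4 FPKM in LPS 1, 7.32 in LPS 2 and 2.18 in LPS 3, against 2.13 FPKM in Control 1, 1.73 in Control 2 and 0.689 in Control 3. The groups did not overlap, but LPS 3 exceeded Control 1 only in the second decimal. The mean was 12.65 ± 13.9 FPKM in LPS and 1.52 ± 0.742 FPKM in Control (SD, n = 3 each), 8.35-fold, while the ratio of medians was 4.23-fold. Without LPS 1 the ratio of means was 3.14-fold. On the log2(FPKM + 1) scale, which understates the change of low genes, the difference was 1.92 ± 0.71 (SE) and became 1.08 without LPS 1. This is the contrast that chose the gene, so it is described and not tested. Of the 12794 genes that reached 1 FPKM in 3 or more libraries, 8.42% stood higher in LPS than Control without overlap.

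LRRC55 was low, at 0.416 FPKM or less, in every library but LPS 1. It was at 3.88 FPKM in LPS 1, 0.416 in LPS 2 and 0.365 in LPS 3, and at 0.0497 FPKM in Control 1, 0.396 in Control 2 and 0.198 in Control 3. LPS 3 was below Control 2, so the groups overlapped. The mean was 1.55 ± 2.01 FPKM in LPS and 0.215 ± 0.174 FPKM in Control (SD, n = 3 each). That ratio of means, 7.23-fold, became 1.82-fold without LPS 1, and the log2 difference of 0.81 ± 0.39 (SE) became 0.20. LRRC55 reached 1 FPKM in 1 of 12 libraries, so it did not pass the filter on low values and its fitted values come from a fit to all 17301 genes. KCNIP1 reached 1 FPKM in 9 libraries and passed.

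**Figure D1:**
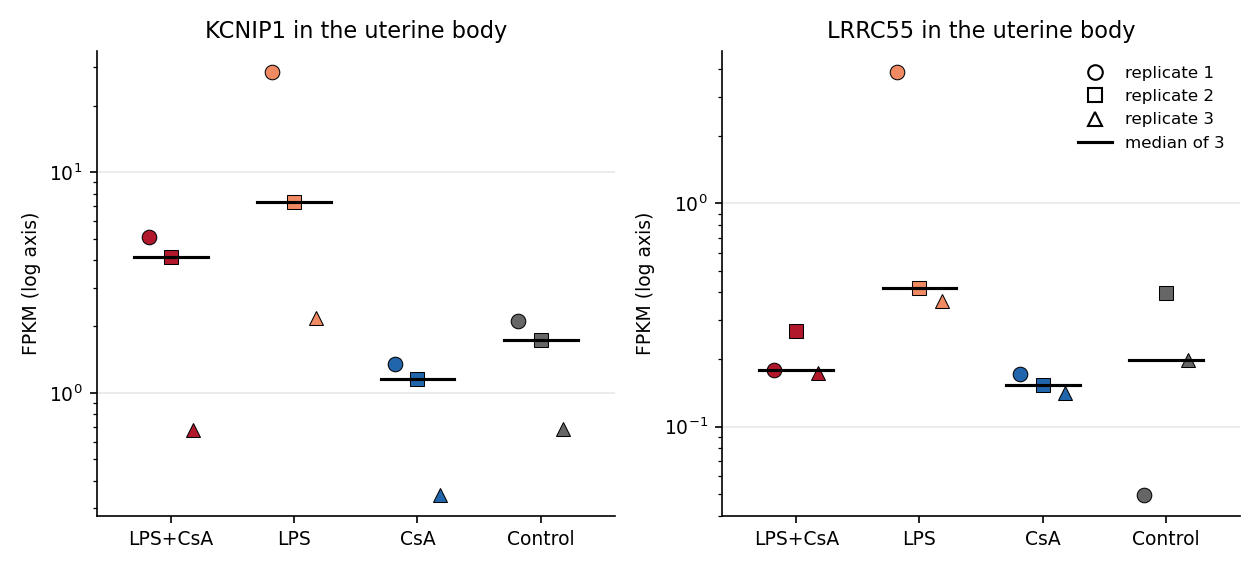
FPKM of KCNIP1 (left) and LRRC55 (right) on log axes, by group. Each point is 1 animal, its shape the replicate number, and the bar is the median of 3. LPS 1 is the highest point in both panels, at 28.4 FPKM for KCNIP1 and 3.88 FPKM for LRRC55.

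Adding cyclosporine A to lipopolysaccharide went with lower group means of both genes, by an amount that again depended on LPS 1. KCNIP1 was at 5.09, 4.12 and 0.676 FPKM in LPS+CsA 1, LPS+CsA 2 and LPS+CsA 3, and these values overlapped those of LPS given above. The mean was 3.30 ± 2.32 FPKM in LPS+CsA and 12.65 ± 13.9 FPKM in LPS (SD, n = 3 each). The log2 difference of -1.30 ± 0.71 (SE) became -0.46 without LPS 1, -0.72 without LPS+CsA 3 and -2.07 without LPS 3. LRRC55 was at 0.179, 0.269 and 0.174 FPKM in LPS+CsA 1, LPS+CsA 2 and LPS+CsA 3, all below the lowest LPS animal. Over all 17301 genes, 5.87% stood lower in LPS+CsA than LPS without overlap. The mean of LRRC55 was 0.207 ± 0.0536 FPKM in LPS+CsA and 1.55 ± 2.01 FPKM in LPS (SD, n = 3 each), and its log2 difference of -0.81 ± 0.39 (SE) became -0.20 without LPS 1. This contrast also chose both genes and carries no test.

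For LPS against Control the authors' deposited table gives a log2 fold change of 3.00 for KCNIP1 (p = 6.8e-05) and of 2.90 for LRRC55 (p = 0.00153). By size these ranked 13 and 16 among the 160 genes listed there as higher in LPS. In the authors' deposited table of LPS+CsA against LPS the log2 fold change was -1.99 for KCNIP1 (p = 0.0113) and -2.95 for LRRC55 (p = 0.000303), ranking 16 and 6 among 77 genes listed as lower. The header of the authors' deposited table of both comparisons names a p-value threshold of 0.05 and a fold of 2, and no adjustment for the number of genes. Across all genes limma called 0 of 12794 (0%) in LPS against Control at an adjusted p under 0.05, with 839 at an unadjusted p under 0.05. In LPS+CsA against LPS it called 0 of 12794 (0%), with 1031 at an unadjusted p under 0.05. In the fit to all 17301 genes, which holds LRRC55, it called 2 (0.0116%) in each of these comparisons.

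LPS 1 stood apart for both genes and for others that the authors list with them. LPS 1 was 3.88 times the next highest library for KCNIP1 and 9.32 times the next highest for LRRC55, and LPS 2 was that next library in both cases. Of 17301 genes, 27 were at 1 FPKM or more in LPS 1 and at least 3 times their value in any other library. The 11 other libraries had between 3 and 26 such genes each. The authors list 34 genes as higher in LPS than Control and lower in LPS+CsA than LPS. LPS 1 was the highest of the 12 libraries for 24 of them (70.6%), against 14.1% of all 17301 genes and 16.3% of the 12794 tested. That list was chosen partly on LPS 1, so its share is a description. CsA 2 was the highest library for 13.5% of all 17301 genes, close to the share of LPS 1. The median correlation of LPS 1 with the other libraries was 0.948 across genes, where the others had 0.943 to 0.967. LPS 1 had 12032 genes at 1 FPKM or more, within the range of 11945 to 12398 of the 12 libraries.

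Markers of other cell types were read where the authors' tables pair them with an identifier. Those tables list genes of contrasts that include LPS 1, so the marker levels are a description. For each marker of this paragraph LPS 1 was at the low end of the LPS range, which is given beside it. The summed level of the plasma cell genes JCHAIN, MZB1 and DERL3 was 16.4 FPKM in LPS 1, 11th of the 12 libraries from the top. Group ranges were 69.0 to 121.5 FPKM in LPS+CsA, 16.4 to 26.5 in LPS, 15.4 to 44.8 in CsA and 37.3 to 131.8 in Control. SOX9, the 1 of 12 epithelial markers with an identifier, was at its lowest in LPS 1, at 1.98 FPKM. Its ranges were 4.57 to 7.27 FPKM in LPS+CsA, 1.98 to 2.96 in LPS, 2.39 to 4.56 in CsA and 3.35 to 4.10 in Control. TRAC, the 1 of 3 T cell markers with an identifier, was also lowest in LPS 1, at 0.655 FPKM, with ranges of 2.29 to 5.99 FPKM in LPS+CsA, 0.655 to 1.13 in LPS, 2.00 to 3.99 in CsA and 2.54 to 4.06 in Control. The red blood cell genes HBB2 and ALAS2, 2 of 3 markers, summed to 109.7 FPKM in LPS 1, the lowest of 12. They summed to 120.3 to 339 FPKM in LPS+CsA, 109.7 to 128.5 in LPS, 140.1 to 202 in CsA and 211 to 380 in Control.

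The 3 neutrophil markers S100A8, S100A9 and S100A12, of 4 listed, (calcium-binding proteins counted again further on) summed to 60.2 FPKM in LPS 1, the 8th of 12 libraries from the top. Their ranges were 14.0 to 527 FPKM in LPS+CsA, 60.2 to 73.3 in LPS, 16.7 to 399 in CsA and 8.68 to 276.5 in Control. The 4 of 11 multiciliated markers with an identifier summed to 2.20 FPKM in LPS 1, the 7th of 12. Of these FOXJ1, C20orf85 and MCIDAS were listed at 0 in at least 1 library. Their summed ranges were 4.68 to 8.83 FPKM in LPS+CsA, 2.20 to 48.0 in LPS, 0.319 to 4.23 in CsA and 0.0571 to 1.98 in Control. SYT1, the 1 of 10 neuronal and glial markers, was at 0.413 FPKM in LPS 1, the 11th of 12, and ranged from 0.454 to 2.17 FPKM in LPS+CsA, 0.237 to 0.746 in LPS, 0.703 to 1.34 in CsA and 0.930 to 1.29 in Control. The part of these marker differences between libraries in the values of KCNIP1 and LRRC55 was not tested. In tissue RNA a change in the number of cells of a type and a change in RNA per cell cannot be told apart. None of the 10 smooth muscle, 7 stromal, 4 endothelial and 2 interstitial cell markers is paired with an identifier, so the labelled tissue could not be checked against them here.

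The CsA libraries are the ones that the selection did not use. Both genes were low there. KCNIP1 was at 1.36, 1.15 and 0.347 FPKM in CsA 1, CsA 2 and CsA 3, overlapping the Control animals. The mean was 0.953 ± 0.535 FPKM in CsA and 1.52 ± 0.742 FPKM in Control (SD, n = 3 each). The log2 difference was -0.36 ± 0.71 (SE, limma adjusted p = 0.976), where limma called 0 of 12794 genes (0%) and 594 had an unadjusted p under 0.05. LRRC55 was at 0.173, 0.154 and 0.142 FPKM in CsA 1, CsA 2 and CsA 3, within the span of the Control animals. Its log2 difference was -0.06 ± 0.39 (SE, limma adjusted p = 1.0). For both genes the SE, which pools the spread of all groups, LPS included, exceeded the difference. The Control animals had been on the low side of the contrast that chose the genes, so this test is not fully independent of that choice.

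The response to lipopolysaccharide under cyclosporine A was read by setting LPS+CsA against CsA. KCNIP1 averaged 3.30 ± 2.32 FPKM in LPS+CsA and 0.953 ± 0.535 FPKM in CsA (SD, n = 3 each), a ratio of means of 3.46-fold. LPS+CsA 1 and LPS+CsA 2 stood above all CsA animals, and LPS+CsA 3, at 0.676 FPKM, stood below CsA 1 and CsA 2. The log2 difference of 0.98 ± 0.71 (SE) did not pass (limma adjusted p = 0.757). The LPS+CsA animals had been on the low side of a contrast that chose both genes, so the tests of this comparison are not independent of that choice. LRRC55 averaged 0.207 ± 0.0536 FPKM in LPS+CsA and 0.156 ± 0.0157 FPKM in CsA (SD, n = 3 each). The groups did not overlap, but the lowest LPS+CsA value of 0.174 FPKM and the highest CsA value of 0.173 FPKM nearly touched. Of all 17301 genes, 6.43% stood higher in LPS+CsA than CsA without overlap. The log2 difference of LRRC55 was 0.06 ± 0.39 (SE, limma adjusted p = 0.994). Limma called 0 of 12794 genes (0%) and 0 of 17301 genes without the filter (0%), and 892 of the 12794 had an unadjusted p under 0.05.

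Animals given both agents were also set against Control animals. KCNIP1 averaged 3.30 ± 2.32 FPKM in LPS+CsA and 1.52 ± 0.742 FPKM in Control (SD, n = 3 each), with overlapping groups. Its log2 difference was 0.62 ± 0.71 (SE, limma adjusted p = 0.963). Each of these groups was on the low side of a contrast that chose the genes, so neither p in this comparison is independent of the choice. For LRRC55 the means were 0.207 ± 0.0536 FPKM in LPS+CsA and 0.215 ± 0.174 FPKM in Control (SD, n = 3 each), the closest pair of groups for this gene. On the log2(FPKM + 1) scale they differed by less than 0.01 (limma adjusted p = 1.0), where the SE was 0.39. Limma called 0 of 12794 genes (0%) in this comparison, with 617 at an unadjusted p under 0.05. These comparisons share groups with one another, so their values are not separate observations.

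**Figure D2:**
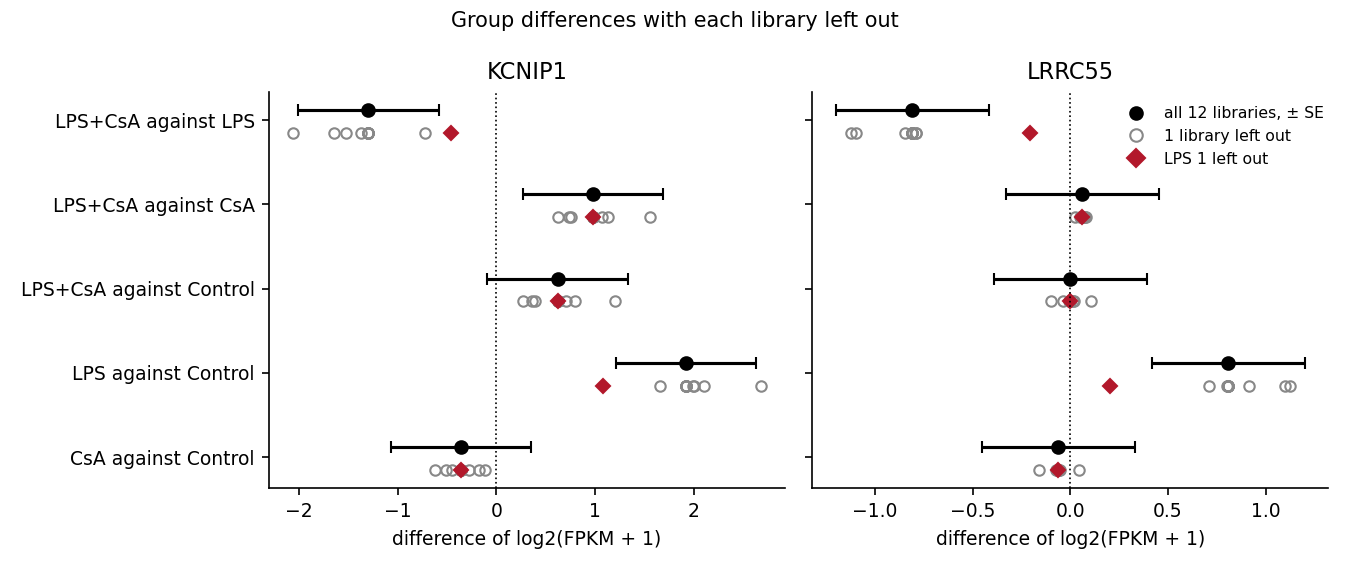
Differences of log2(FPKM + 1) for KCNIP1 (left) and LRRC55 (right) in 5 comparisons. Black points with bars are the estimates from 12 libraries ± SE, grey circles are estimates with 1 library left out, and red diamonds leave out LPS 1. In LPS against Control the diamond is at 1.08 for KCNIP1, against 1.92 with LPS 1, and at 0.20 for LRRC55, against 0.81.

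By group median, KCNIP1 ran from 1.15 FPKM in CsA through 1.73 in Control and 4.12 in LPS+CsA to 7.32 in LPS. Each neighbouring pair in that order overlapped. LRRC55 had medians of 0.154 FPKM in CsA, 0.179 in LPS+CsA, 0.198 in Control and 0.416 in LPS. LPS+CsA overlapped Control and Control overlapped LPS, while CsA and LPS+CsA were separate by the margin given above. The lowest group by median was CsA and the highest LPS for both genes. How far the effect of cyclosporine A differed with lipopolysaccharide from that without it is given by the interaction. It was -0.94 ± 1.01 for KCNIP1 and -0.75 ± 0.55 for LRRC55 (log2, SE), and -0.10 and -0.14 without LPS 1, values that include the contrast of LPS+CsA against LPS and so carry no test. Averaged over both arms, animals with cyclosporine A differed from those without it by -0.83 for KCNIP1 and -0.43 for LRRC55 on the log2 scale, and by -0.41 and -0.13 without LPS 1. These averages also include the contrast of LPS+CsA against LPS, the larger of their parts for both genes, and carry no test.

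Animals of 1 group differed widely in KCNIP1. The highest animal exceeded the lowest 7.53-fold in LPS+CsA, 13.0-fold in LPS, 3.92-fold in CsA and 3.09-fold in Control. For LRRC55 the same ratio was 1.55 in LPS+CsA, 10.6 in LPS, 1.22 in CsA and 7.97 in Control. The 3 CsA animals were thus close together in LRRC55, with a coefficient of variation of 10.0%, against 80.9% in Control. Levels this low rest on few reads, 5 in Control 1, and no counts are given for CsA. Counting error was not separated from differences between animals here. Over all 12 animals the highest exceeded the lowest 82.0-fold for KCNIP1 (LPS 1 over CsA 3) and 78.0-fold for LRRC55 (LPS 1 over Control 1).

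The deposited tables give read counts for the 9 libraries outside the CsA group. KCNIP1 rested on 118, 87 and 15 reads in LPS+CsA 1, LPS+CsA 2 and LPS+CsA 3, on 668, 167 and 50 in the LPS animals, and on 49, 45 and 16 in Control 1, Control 2 and Control 3. LRRC55 rested on 20, 29 and 19 reads in LPS+CsA 1, LPS+CsA 2 and LPS+CsA 3, on 447, 46 and 40 in the LPS animals, and on 5, 46 and 20 in Control 1, Control 2 and Control 3. If these are raw counts, the exact Poisson interval at 95% was 406.5 to 490.4 for the 447 reads of LPS 1 and 1.62 to 11.7 for the 5 reads of Control 1. Such intervals cover counting error only and leave out differences between animals. The reads behind 1 FPKM lay between 21.1 and 26.0 for KCNIP1 and between 100.6 and 116.2 for LRRC55. A given FPKM of LRRC55 thus rested on about 4.755 times as many reads, and in Control 2 the 2 genes had 45 reads (KCNIP1) and 46 reads (LRRC55) at 1.73 and 0.396 FPKM. Library totals are not known.

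Per length, KCNIP1 was the more abundant messenger RNA in all 12 libraries. The ratio of its FPKM to that of LRRC55 ran from 2.44 in CsA 3 to 42.8 in Control 1 and was 7.34 in LPS 1. KCNIP1 stood above 81.7% of the 17301 genes in LPS 1, above 53.9% in LPS 2 and above 21.8% in CsA 3. LRRC55 stood above 44.4% of genes in LPS 1 and above 12.6% to 23.6% in the 11 other libraries.

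Across the 12 animals the correlation of the pair depended on LPS 1. Pearson's r of log2(FPKM + 1) was 0.818 and Spearman's rho 0.657, and without LPS 1 they were 0.4625 and 0.5545. With group means removed r was 0.727, and 0.125 without LPS 1. The high values of LPS 1 also entered the contrasts by which both genes were chosen, and removing group means does not undo that, so these coefficients are a description with no test. Leaving out LPS 1 and LPS 2, the animals farthest from the median of KCNIP1, the pooled r was 0.224 and rho 0.406, over a narrower range of values.

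**Figure D3:**
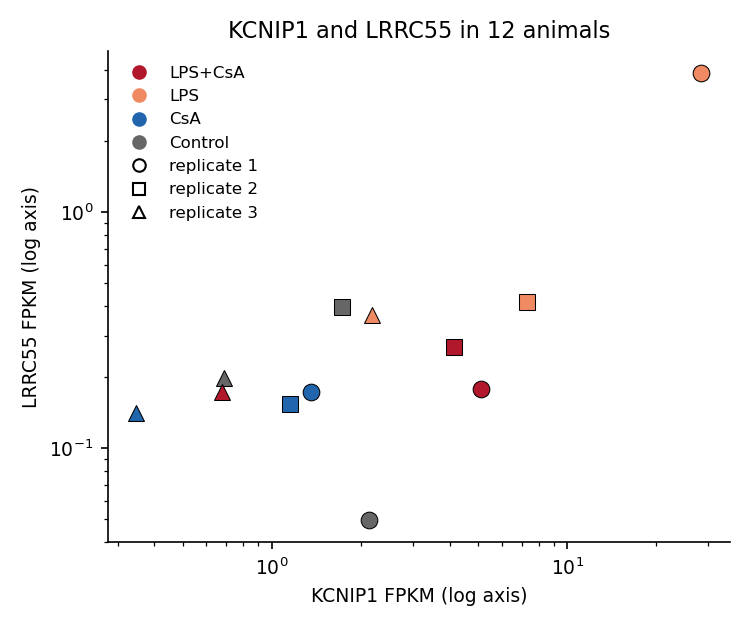
LRRC55 FPKM against KCNIP1 FPKM in 12 animals, both on log axes, coloured by group and shaped by replicate number. LPS 1 lies alone at the upper right (28.4 and 3.88 FPKM), and Control 1 at the bottom (2.13 and 0.0497 FPKM).

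Genes with a symbol whose pattern over the 12 libraries was most like that of KCNIP1 were FAM78B, STARD9, RIN2, FAM155B and SLC22A3. FAM78B had a Pearson r of 0.947 with KCNIP1, and was at 8.17 FPKM in LPS 1 and at 1.38 to 4.33 FPKM in the other 11 libraries. STARD9, a kinesin with a lipid-binding domain, had an r of 0.938, and RIN2, a regulator of the endosomal GTPase Rab5, an r of 0.928. FAM155B, of a family of auxiliary factors of the sodium leak channel NALCN, had an r of 0.902, and SLC22A3, an organic cation transporter, one of 0.901. Without LPS 1 these 5 coefficients lay between 0.738 (FAM155B) and 0.889 (FAM78B). The genes were picked with LPS 1 included, among genes that the authors list in contrasts that use it. The coefficients are thus a description. All 12 libraries enter each coefficient, and genes of 1 library share its preparation and scaling. SHISA2, WNT6, a Wnt ligand, and PGER4 ran most against KCNIP1, with r of -0.791, -0.789 and -0.782. Without LPS 1 these became -0.652 for SHISA2, -0.750 for WNT6 and -0.535 for PGER4. WNT6 was at 0.494 FPKM in LPS 1, 1.33 in LPS 2 and 3.15 in LPS 3, against 1.34, 8.37 and 9.21 FPKM in Control 1, Control 2 and Control 3. It was at 1.38, 1.74 and 6.61 FPKM in LPS+CsA 1, LPS+CsA 2 and LPS+CsA 3, and at 8.51, 2.05 and 6.51 in CsA 1, CsA 2 and CsA 3. Among identifiers without a symbol ENSOCUG00000013018 and ENSOCUG00000011749 were the most like KCNIP1 (r = 0.958 for each).

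For LRRC55 most of the likeness was lower without LPS 1. SLC38A5, a transporter of glutamine and other neutral amino acids, had an r of 0.968 and was at 46.1 FPKM in LPS 1 and 5.94 to 10.5 FPKM in the other 11 libraries. GYG1, the primer of glycogen synthesis, had an r of 0.924, SGCA, the alpha subunit of the sarcoglycan complex of muscle, 0.906, MFSD9 0.861 and FAM155B 0.847. Without LPS 1 these became 0.607 for SLC38A5, 0.545 for GYG1, 0.361 for SGCA, 0.802 for MFSD9 and 0.351 for FAM155B. FAM155B was named for both genes, at 3.10 FPKM in LPS 1 and 0.363 to 1.30 FPKM elsewhere. SCUBE1, PGER4 and AIF1L ran most against LRRC55, with r of -0.723, -0.717 and -0.697, and lay between -0.231 and -0.0262 without LPS 1. The identifier most like LRRC55, ENSOCUG00000024479 (r = 0.972), was at 409 FPKM in LPS 1 and at 0.573 to 2.01 FPKM in the other 11 libraries, and its r without LPS 1 was 0.180. ENSOCUG00000017148 (r = 0.969) kept an r of 0.854 without LPS 1. All these genes with a symbol have it because the authors list them, so the search covered 254 named genes for KCNIP1 and 255 for LRRC55.

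**Figure D4:**
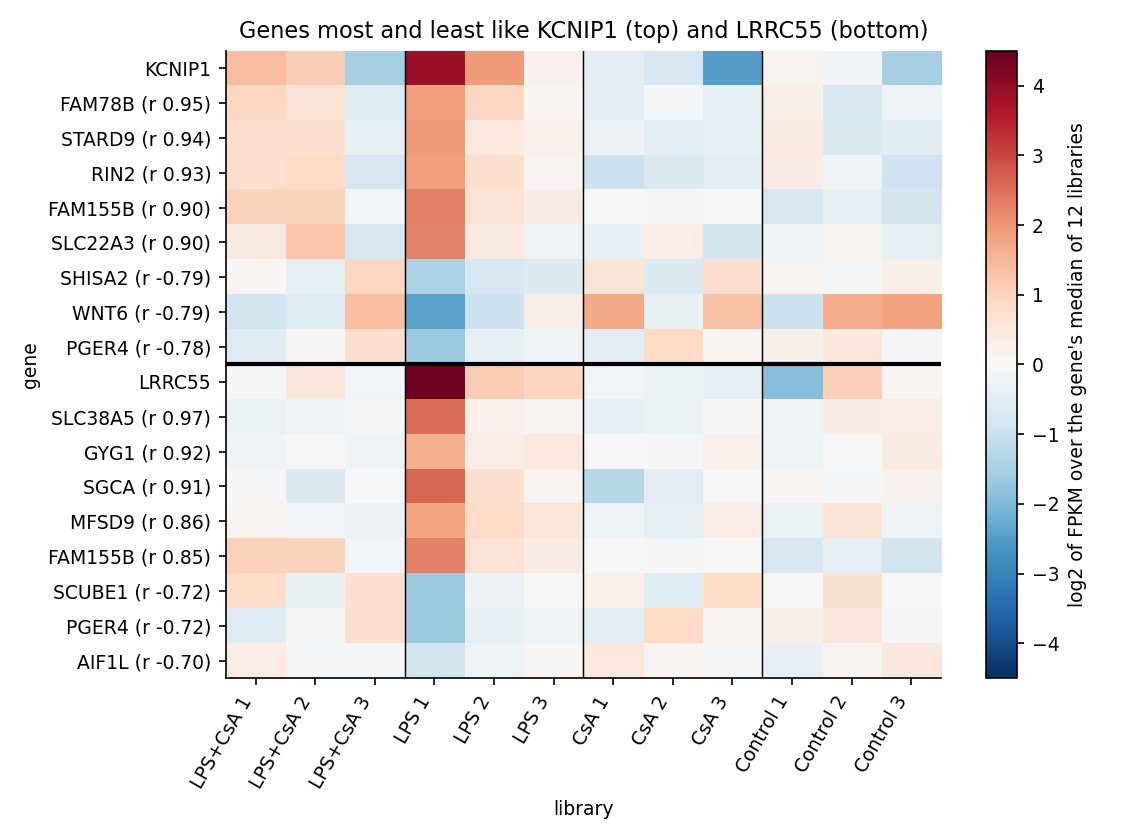
Level of KCNIP1 and LRRC55 and of the genes with a symbol most and least like each, in 12 libraries. Colour is the log2 of FPKM over the gene's own median of 12 libraries, red above and blue below. LPS 1 is the deepest red column for both, at 28.4 FPKM of KCNIP1 and 3.88 FPKM of LRRC55, and the genes of negative r are blue there.

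Other potassium channel genes could hardly be followed. Of the potassium channel genes looked for, 3 are paired with an identifier, and the third is KCNK13, a pore-forming subunit of the tandem-pore-domain family. KCNK13 was at 0.253, 0.831 and 0.206 FPKM in LPS+CsA, 0.994, 0.324 and 0.803 in LPS, 0.170, 0.112 and 0.357 in CsA, and 0.195, 0.505 and 0.228 in Control (replicates 1, 2 and 3 of each). It was highest in LPS 1 too, though only slightly above the 0.831 FPKM of LPS+CsA 2, and the groups overlapped in LPS against Control. Its log2 difference in that comparison was 0.37 ± 0.19 (SE, from the fit to all 17301 genes). The authors list it in the table of LPS against Control, which therefore carries no test here. The Kv4 pore genes, the BK pore gene KCNMA1 and KCNMB1 are not paired with an identifier and are not analysed here.

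Among other ion channel, leucine-rich repeat and calcium-binding genes, 8 besides LRRC55 had an identifier. GABRQ, a subunit of the GABA-A receptor, was at 0.254 FPKM in LPS 1, the 7th of 12 libraries. GRIN2C, a subunit of the NMDA receptor, was at 0.274 FPKM there, the 11th of 12. LRRC49, a leucine-rich repeat protein, was at 129 FPKM in LPS 1 and at most 50.7 FPKM in the other libraries. LPS 2 and LPS 3 were at 28.7 and 22.0 FPKM of LRRC49, against 24.6, 26.4 and 11.7 FPKM in Control 1, Control 2 and Control 3, so the groups overlapped. Of the 5 calcium-binding genes NECAB3 was lowest of 12 in LPS 1, at 0.359 FPKM, and CALB2, calretinin, was at 15.1 FPKM, the 9th. Symbols are known only for genes in the authors' tables, so LPS against Control and LPS+CsA against LPS carry no test for them. GRIN2C, LRRC49 and the 5 calcium-binding genes passed the filter on low values. In CsA against Control, LPS+CsA against Control and LPS+CsA against CsA, 0 of these 7 passed limma in either direction, where 0 of all 12794 genes did. At an unadjusted p under 0.05 it was also 0 of 7, against 4.64%, 4.82% and 6.97% of all genes in the 3 comparisons.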

How the data were processed

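Per the submitters' processing notes the reads were aligned with TopHat2 and quantified with Cufflinks and Cuffnorm. The sources used here give no versions and no build. The authors deposited FPKM values for 17301 genes in each of 12 libraries. For the genes in their comparison tables they also deposited read counts, p-values and log2 fold changes, per the file headers, which name edgeR in 1 table. Whether the counts are raw is not given, and they cover listed genes only, so no count model was fitted and depth is unknown. Symbols come from those tables, which pair 302 of 437 identifiers with one.

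The scale was log2(FPKM + 1). The 12794 genes that reached 1 FPKM in 3 or more libraries were fitted with limma 3.58.1 in R 4.3.3. The fit had a mean per group and an intensity trend, two-sided, with Benjamini-Hochberg adjustment at 5% over all genes. It was tried on simulated data with independent normal noise and no outlying library, which cannot show how it behaves with one. For LRRC55 the fit had no filter. The p-values set a group difference against the spread between animals, pooled over all groups. For LRRC55 the SD on the log2 scale was 1.05 in LPS and 0.0196 in CsA. Its SE and p in comparisons without the LPS group thus also reflect the LPS animals. Fitted on the compared groups alone, LRRC55 had a limma adjusted p of 0.807 in LPS+CsA against CsA. The rest used scipy 1.17.1, pandas 2.3.3 and numpy 2.4.6 under Python 3.11.15, with figures from matplotlib 3.10.9.

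The genes, lists and comparisons were chosen with earlier results of these data known. Both members were described in each comparison. The likeness rule took the 5 genes with a symbol of highest and the 3 of lowest Pearson r and the 2 unnamed identifiers of highest r. The settings tried instead were each library left out, a block for replicate number, array weights, no trend, the compared groups alone, quantile or median-of-ratios scaling, a filter of mean 5 FPKM or none, and 0.1 as pseudocount. Likeness without LPS 1 was added after seeing the data.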

Additional observations from a re-analysis of the deposited data

How the results depend on the processing

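Of 418 recomputed values, 381 kept direction and side of the threshold or moved by less than the spread between animals. These include all for KCNIP1 in the 6 comparisons. The count is no measure of stability, because some settings cannot move a difference, such as leaving out a library of a group not compared. The spread of KCNIP1 is also wide, so its interaction counts here although it went from -0.94 to -0.10 without LPS 1. KCNIP1 and LRRC55 could not be fitted with a mean of at least 5 FPKM, and the fit of LRRC55 has no filter to drop. With a pseudocount of 0.1 the log2 difference of LRRC55 was 1.81 in LPS against Control, -1.69 in LPS+CsA against LPS and -1.56 for the interaction. In LPS+CsA against Control, where it was near 0, it turned to -0.0047 with median-of-ratios scaling and -0.0303 with quantile normalization. Leaving out 1 library at a time, LRRC55 ranged from 0.20 to 1.12 in LPS against Control, -0.16 to 0.044 in CsA against Control, -0.10 to 0.11 in LPS+CsA against Control, -1.12 to -0.20 in LPS+CsA against LPS, and -1.06 to -0.14 for the interaction. The ends at 0.20, -0.20 and -0.14 are those without LPS 1. Under the same omissions KCNIP1 ranged from 1.08 to 2.69 in LPS against Control, from -0.62 to -0.11 in CsA against Control, from 0.27 to 1.20 in LPS+CsA against Control, from -2.07 to -0.46 in LPS+CsA against LPS, from 0.63 to 1.56 in LPS+CsA against CsA, and from -1.71 to -0.10 for the interaction. The centred correlation of the pair ranged from 0.125 to 0.821.

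Limma called 2 genes in LPS against Control and 2 in LPS+CsA against LPS with no filter. Fitted on the compared groups alone it called 1 gene each in LPS+CsA against Control, LPS and CsA. Leaving out 1 library gave 0 to 4 calls in CsA against Control and 0 to 1 in each of the other 5 comparisons. Without LPS 1 the genes at an unadjusted p under 0.05 in LPS against Control fell to 432, against 839 with all libraries. They were 792 without LPS 2 and 1036 without LPS 3. Without Control 1, Control 2 or Control 3 they were 723, 628 and 709. The causes were not tested.

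No label says that equal replicate numbers mark paired animals. Of 18 pairs of same-numbered libraries 8 had deviations from their group means correlated above 0.1 (range -0.0909 to 0.421), among them all 6 pairs of number 3, and 9 of 12 libraries correlated best with their own number. KCNIP1 was highest in number 1 and lowest in number 3 in all 4 groups, and 129 of 12794 genes (1.01%) kept 1 order of numbers throughout. Within a number KCNIP1 was lower in LPS+CsA than LPS in 3 of 3 and higher in LPS+CsA than CsA in 3 of 3. It was lower in CsA than Control in 3 of 3, and higher in LPS+CsA than Control in 2 of 3. For LRRC55 the same 4 counts were 3 of 3, 3 of 3, 2 of 3 and 1 of 3. LPS+CsA against LPS chose both genes, and the share of all genes with such counts was not computed, so the counts are a description. With a replicate block the log2 differences were the same and KCNIP1 did not pass in LPS+CsA against CsA (0.98, limma adjusted p = 0.552). Under the block limma called 0 genes in each of the 6 comparisons, and 994 had an unadjusted p under 0.05 in LPS against Control. LRRC55 had 5 to 46 reads in 8 of the 9 libraries with counts, which limits its precision.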
